A study of Mus musculus with 40 samples.

Results

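The diet comparison in the cerebellum of Ttpa-/- mice was made between 4 arrays of animals kept on a vitamin E-deficient diet and 4 arrays of animals kept on a vitamin E-supplemented diet. These 8 arrays were taken by their titles from the 40 arrays of the series, in which each array held total RNA of 1 brain region in 10 groups of 4. Both groups carried the same deletion of Ttpa on the C57Bl/6 background and were 29 months old. Whether the animals were alike at loci other than Ttpa was not tested. The labels give them different diets and no other difference, and the diet held 600 mg of α-tocopherol per kg in the supplemented group and was labelled deficient, with no amount given, in the other. The study's design text gives 4 mice per group. For comparison, the same diet contrast was read in the cortex of Ttpa-/- mice (4 against 4 arrays), and the deficient diet was set against the normal diet of 36 mg of α-tocopherol per kg in wild-type cerebellum at 29 months (4 against 4 arrays). The wild-type contrast therefore used another reference diet than the Ttpa-/- contrast.

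The α-tocopherol transfer protein encoded by Ttpa loads dietary α-tocopherol, the main form of vitamin E, into circulating lipoproteins in the liver. Without it, tissue vitamin E falls to very low levels, and Ttpa-/- mice develop ataxia late in life. A high-dose diet partly bypasses the missing protein. α-Tocopherol stops chain reactions of lipid peroxidation in membranes, and the membranes of the endoplasmic reticulum, where secreted and membrane proteins fold, are among those it enters. Cells that meet unfolded proteins in that compartment raise chaperones, disulfide isomerases and degradation factors through the transcription factors Atf6, Xbp1 and Atf4, a programme called the unfolded protein response.

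In old Ttpa-/- cerebellum, the deficient diet was accompanied by higher RNA of chaperones of the endoplasmic reticulum and of some heat shock genes. Of the heat shock list outside that compartment, only Hspb1 and Hspa1a were called, and both calls depended on single arrays. Hspa5, the Hsp70 chaperone of the endoplasmic reticulum also known as BiP, was up-regulated 1.65-fold, its co-chaperone Sdf2l1 1.99-fold and the secreted stress protein Manf 1.72-fold. Of 23 neuronal immediate early genes tested, Npas4 (3.04-fold) and Fosl2 (2.25-fold) were called higher, against 0.134% of all probes tested. The largest falls lay in a stretch of chromosome 4 around Ccl27a, and outside it the cytosolic phospholipase Pla2g4e fell by 1.37 on the log2 scale. Genes of vitamin E transport, antioxidant enzymes and the marker genes of Purkinje and granule cells had no member past both the adjusted p and the fold threshold. Only 0.343% of all probes tested passed both, so lists of this size can hold none without differing from other probes.

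Of 30643 probes tested, 105 (0.343%) passed an adjusted p under 0.05 with a change over 1.5-fold: 41 higher (0.134%) and 64 lower (0.209%) on the deficient diet. These came from 37 and 54 gene or transcript names. The 4 deficient and 4 supplemented arrays did not overlap at 95 of the 105, against 5.33% of all probes tested. The call itself selects for such separation on the same arrays, so this count describes the calls and adds no support to them. An adjusted p under 0.05 at any fold was reached by 235 probes (0.767%), and an unadjusted p under 0.05 by 3557 (11.6%). The median log2 change over all probes tested was −0.01, and 47.9% of them lay above 0. For a single gene with 4 against 4 arrays, the exact two-sided permutation test cannot go below 0.0286.

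These calls rest on the spread pooled over all 40 arrays. Fitted on the 8 compared arrays alone, limma called 0 higher and 0 lower, with a smallest adjusted p of 0.331. In that fit 1881 probes had an unadjusted p under 0.05, among them all 105 of the called probes. Those 105 were chosen by the same differences between the same arrays, so this is no separate check of the calls. Replicate 2 of both diets stood apart from the other 6 arrays on the first principal component (44.7% of the variance over 28650 probes), and without these 2 arrays, an alternative chosen after seeing the data, 30 probes were called higher and 69 lower. Replicates of 1 diet correlated with r of 0.98 to 0.99 over probes, as did arrays of different diets. All 8 arrays were hybridised on 1 slide, the deficient group in its row 2 and the supplemented group in its row 1, so slide row and diet cannot be told apart. The wild-type slide had the same layout, with the deficient diet in row 2 and the normal diet in row 1.

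The labels held up against the markers that could be read. Ttpa was well above background on 0 of 4 deficient and 1 of 4 supplemented arrays at 1 probe, and on all 12 wild-type cerebellum arrays. The second Ttpa probe was near background on 7 of the 8 arrays (−7.42 to −6.31) and stood at −2.67 on deficient replicate 2, and it was above background on 0 of 12 wild-type arrays. Whether either probe lies in the deleted part of the gene is not stated. Pcp2, a Purkinje cell gene, and Gabra6, a granule cell receptor subunit, were well above background on all 8 arrays.

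**Figure D1:**
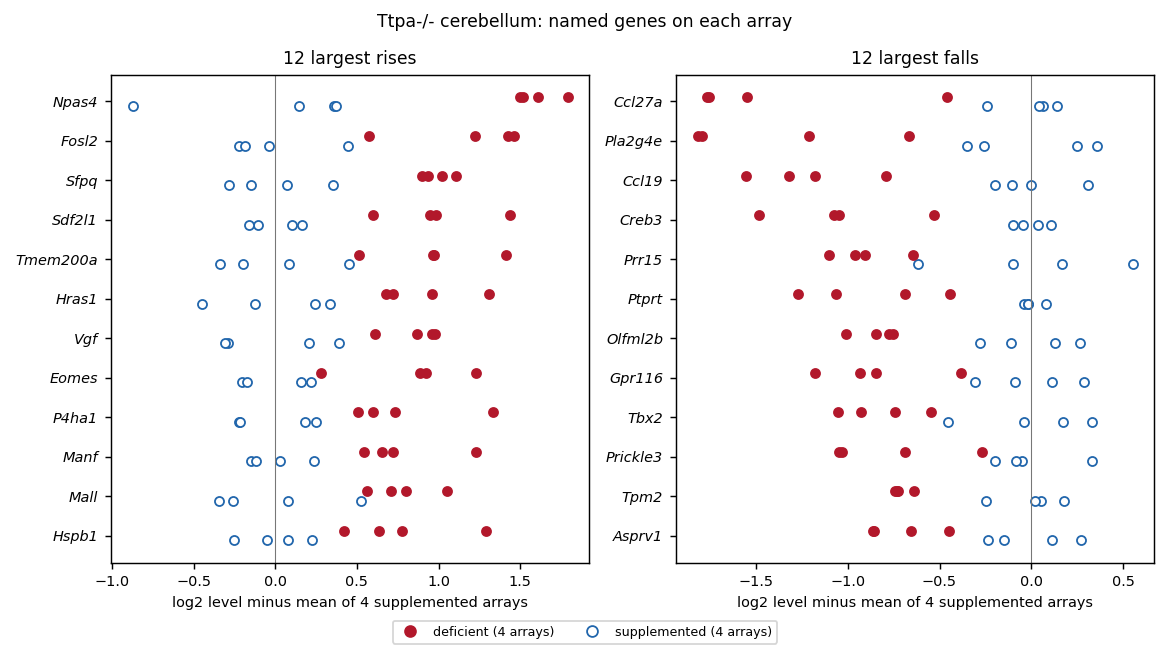
The 12 largest rises (left) and 12 largest falls (right) on each of the 8 Ttpa-/- cerebellum arrays, drawn as the log2 level minus the mean of the 4 supplemented arrays on a log2 axis. Filled points are the 4 deficient arrays and open points the 4 supplemented arrays, and the 2 sets do not overlap for any gene drawn, which the choice of genes required.

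Several of the genes of this group carry the endoplasmic reticulum stress element in their promoters. The element joins a CCAAT box, bound by NF-Y, to a CCACG stretch to which Atf6 and Xbp1 bind, and it was searched as CCAAT, any 9 bases and CCACG on either strand. In the RefSeq promoters of GRCm38.p6, 39 of 32851 windows of 300 bases (0.119%) held it. Among 34 endoplasmic reticulum stress genes with a promoter entry it was found in 9: Hspa5, Hsp90b1, Calr, Canx, Pdia6, Creld2, Derl3, Syvn1 and Dnajc3. That list was assembled for this response after the values were seen, and it counts genes where the share counts windows. The 9 of 34 is therefore a description and not a test. Of 24 genes that were called higher and had a promoter entry, 2 held it (Hspa5 and Derl3). The 250 bases before the start are shown for 5 of them with an adjusted p under 0.05, because each holds the element and differed between the diets, with the element in capitals on the gene's own strand, read 5′ to 3′ (a match on the other strand begins with CGTGG and ends with ATTGG).
Hspa5 (chr2:34771840-34772089, plus strand): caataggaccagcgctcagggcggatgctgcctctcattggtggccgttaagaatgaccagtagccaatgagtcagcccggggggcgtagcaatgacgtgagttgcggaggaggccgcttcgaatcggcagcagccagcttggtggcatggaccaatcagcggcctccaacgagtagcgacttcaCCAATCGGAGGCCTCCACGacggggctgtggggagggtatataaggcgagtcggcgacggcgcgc
Hsp90b1 (chr10:86705445-86705694, minus strand): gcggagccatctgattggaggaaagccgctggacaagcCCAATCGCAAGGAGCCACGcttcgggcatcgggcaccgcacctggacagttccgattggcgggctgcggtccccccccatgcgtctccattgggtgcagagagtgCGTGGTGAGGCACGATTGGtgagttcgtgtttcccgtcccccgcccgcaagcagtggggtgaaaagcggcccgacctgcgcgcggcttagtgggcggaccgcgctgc
Pdia6 (chr12:17266339-17266588, plus strand): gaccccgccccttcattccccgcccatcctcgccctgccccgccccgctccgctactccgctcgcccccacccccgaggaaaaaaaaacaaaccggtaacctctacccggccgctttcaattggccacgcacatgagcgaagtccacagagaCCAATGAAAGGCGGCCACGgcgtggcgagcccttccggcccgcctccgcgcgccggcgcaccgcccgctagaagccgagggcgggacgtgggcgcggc
Creld2 (chr15:88819396-88819645, plus strand): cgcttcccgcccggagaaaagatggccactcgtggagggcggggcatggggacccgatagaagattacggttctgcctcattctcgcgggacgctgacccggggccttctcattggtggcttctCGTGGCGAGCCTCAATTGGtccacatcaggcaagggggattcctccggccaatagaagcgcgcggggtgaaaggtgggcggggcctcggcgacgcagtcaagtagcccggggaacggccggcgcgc
Derl3 (chr10:75893148-75893397, plus strand): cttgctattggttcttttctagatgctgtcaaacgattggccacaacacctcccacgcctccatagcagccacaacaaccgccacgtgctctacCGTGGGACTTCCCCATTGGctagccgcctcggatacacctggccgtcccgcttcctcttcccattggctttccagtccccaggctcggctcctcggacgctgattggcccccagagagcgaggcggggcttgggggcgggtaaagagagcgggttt
Hsp90b1 held 2 matches. A heat shock element, searched as GAA, TTC and GAA with any 2 bases between neighbours, was present in 0.603% of promoters, in 0 of the 34 and 0 of the 24. The heat shock chaperones were not searched as a list, and Hsph1, looked up by itself, held this element. The cyclic AMP response element TGACGTCA was present in 1.79%, in 1 of the 34 (Ppp1r15a) and 1 of the 24 (Mkks). A match is a run of letters and not a site shown to be bound. Calr, Canx, Syvn1 and Dnajc3, whose promoters also held the stress element, changed by 0.41, 0.14, 0.13 and 0.06 on the log2 scale, none past the test. Sdf2l1, Manf and Xbp1, which were called higher, were not among the 9.

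Levels below are log2 signals of a probe relative to the 75th percentile of its array, so 0 is that percentile and levels of different probes are not comparable. Hspa5 stood at 5.68, 5.24, 5.31 and 5.61 on the deficient arrays and at 4.80, 4.79, 4.65 and 4.69 on the supplemented arrays. The lowest deficient array thus lay above the highest supplemented array, and the log2 change was 0.72 (SE 0.11, adjusted p = 0.00022). Its probe maps to chr2:34631913-34631972 of mm9, the build of the array annotation. Sdf2l1, a partner of Hspa5 in the endoplasmic reticulum, stood at 0.89, 0.04, 0.43 and 0.39 against −0.45, −0.38, −0.66 and −0.71 (log2 change 0.99, SE 0.15, adjusted p = 0.000412). Manf, a secreted neurotrophic protein that is released from the endoplasmic reticulum under stress, stood at 2.53, 2.03, 1.84 and 1.96 against 1.54, 1.34, 1.15 and 1.19 (0.79, SE 0.13, adjusted p = 0.000661). All 3 genes remained called with each of the 8 arrays left out in turn and without replicate 2 of both diets, where Hspa5 changed by 0.82, Sdf2l1 by 1.18 and Manf by 0.82.

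The list of 20 heat shock chaperones had 19 members tested, of which 3 were called higher and 0 lower: Hspa5, Hspb1 and Hspa1a. Of all probes tested, 0.134% were called higher and 0.209% lower. Hspb1, a small heat shock protein, changed by 0.78 (SE 0.19, adjusted p = 0.0407) with 4.04, 3.17, 3.53 and 3.38 on the deficient arrays and 2.97, 2.83, 2.70 and 2.50 on the supplemented arrays. Hspa1a, the inducible Hsp70, changed by 0.60 (adjusted p = 0.00862). No probe carries the name of its near-identical copy Hspa1b, so the signal of the pair is uncertain. Below the fold threshold, Hsph1, an Hsp70 exchange factor, differed by 0.58 (adjusted p = 0.00916) and Hsp90b1, the Hsp90 of the endoplasmic reticulum, by 0.51 (adjusted p = 0.00644). The Hsp40 Dnaja1 differed by 0.43 at its brighter probe (adjusted p = 0.0094) and by 0.21 at the other (adjusted p = 0.573). Of the 19 members, 17 lay above 0, 15 had an unadjusted p under 0.05 and 10 did not overlap between the diets, with a median log2 change of 0.24. Over all probes tested, 47.9% lay above 0, 11.6% had an unadjusted p under 0.05, 5.33% did not overlap and the median was −0.01. Summed over the members, the signal was 654 to 727 on the deficient arrays and 512 to 613 on the supplemented arrays, relative to an array's 75th percentile of 1. Without replicate 2 of both diets the median remained 0.24, with 17 of 19 above 0. Among the abundant cytosolic members, Hsp90ab1 and Hsp90aa1 had log2 changes of 0.22 and 0.20 that did not pass. Hspa8 had 0.10 at its brightest probe (adjusted p = 0.826), 0.32 at another (adjusted p = 0.0127) and 0.13 at a further one (adjusted p = 0.778). Hsf1, the transcription factor of the heat shock response, was looked up after the values were seen and had a change of 0.45 (adjusted p = 0.0115).

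A wider list of 40 endoplasmic reticulum stress genes was assembled after the values had been seen, so its counts are a description. All 40 were tested, 8 were called higher, 1 was called lower and 34 lay above 0, with a median log2 change of 0.23 (0.22 without replicate 2 of both diets). The shares over all probes tested were 0.134% higher, 0.209% lower and 47.9% above 0. Besides Hspa5, Sdf2l1 and Manf, the called rises were Xbp1, the transcription factor of the response (0.60, SE 0.09, adjusted p = 0.000228), Derl3, a channel component of endoplasmic reticulum-associated degradation (0.63, adjusted p = 0.0319), Serpinh1, the collagen chaperone Hsp47 (0.61, adjusted p = 0.0169), P4ha1, a collagen prolyl hydroxylase subunit (0.79, adjusted p = 0.0483) and Mthfd2, a mitochondrial folate enzyme driven by Atf4 (0.62, adjusted p = 0.04). Xbp1 here means total RNA, since the array does not separate its spliced form. An adjusted p under 0.05 with less than 1.5-fold was found for the disulfide isomerases Pdia6 (0.57) and Pdia4 (0.52), the co-chaperone Dnajb11 (0.57), the secreted protein Creld2 (0.56), Atf4 (0.45) and the ubiquitin enzyme Ube2j1 (0.36). Other regulators of the response did not pass the test: Atf6 differed by 0.08, Ddit3 (CHOP) by 0.22, Herpud1 by 0.13, and the sensors Ern1 and Eif2ak3 by −0.02 and −0.00. The called fall was Creb3, a membrane-bound transcription factor, which lies in the chromosome 4 stretch described further on.

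The marginal calls of this group depended on single arrays. Xbp1 dropped just under the fold threshold without deficient replicate 1, supplemented replicate 3 or supplemented replicate 4 (0.57 to 0.58, adjusted p up to 0.00279). Without deficient replicate 1 Hspa1a fell to 0.49, Serpinh1 to 0.48, Derl3 to 0.41 and Hspb1 to 0.61, and none of the 4 passed (adjusted p up to 0.215). Serpinh1 was also lost without deficient replicate 4 or supplemented replicate 3, and Hspa1a without supplemented replicate 3 or 4. Hspb1 and Derl3 kept their call in 2 of 8 such fits, and P4ha1 and Mthfd2 in 3 of 8.

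**Figure D2:**
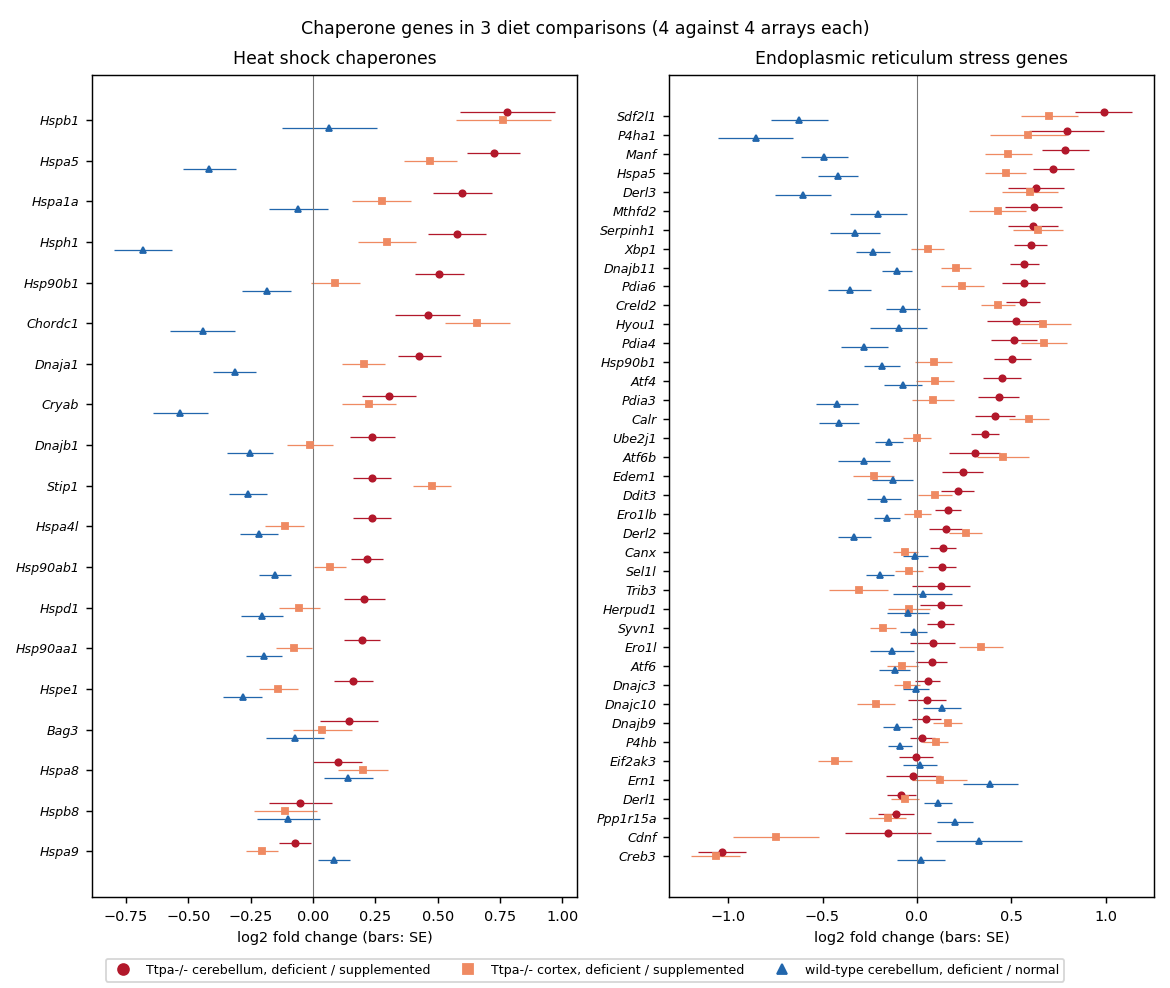
Log2 fold changes with their SE for 19 heat shock chaperones (left) and 40 endoplasmic reticulum stress genes (right) in 3 diet comparisons of 4 against 4 arrays each. In Ttpa-/- cerebellum (circles) 17 of 19 and 34 of 40 genes lie above 0, in Ttpa-/- cortex (squares) 12 of 19 and 26 of 40, and in wild-type cerebellum on the deficient against the normal diet (triangles) 3 of 19 and 8 of 40.

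The same chaperones were read in the other comparisons. In Ttpa-/- cortex the deficient diet was accompanied by a change of 0.47 in Hspa5 (adjusted p = 0.00407), 0.70 in Sdf2l1 (adjusted p = 0.00308) and 0.49 in Manf (adjusted p = 0.00991). There 2 of 19 heat shock members were called higher, against 1.99% of all probes tested, with 12 above 0 and a median of 0.09. In wild-type cerebellum, on the deficient against the normal diet, the direction was the opposite: Hspa5 differed by −0.42 (adjusted p = 0.0241), Sdf2l1 by −0.62 (adjusted p = 0.0201), Manf by −0.49 (adjusted p = 0.0239) and Hsph1 by −0.68 (adjusted p = 0.00437), and 3 of 19 heat shock members lay above 0 with a median of −0.20. The difference between the 2 cerebellar diet contrasts, tested as an interaction, was 1.14 for Hspa5 and 1.61 for Sdf2l1 (adjusted p = 0.000107 each), 1.26 for Hsph1 (adjusted p = 0.000107) and 1.28 for Manf (adjusted p = 0.000165). This interaction was called higher for 7 of 19 heat shock members and for 15 of 40 endoplasmic reticulum stress genes, a list assembled after the values were seen, against 1.47% of all probes tested. Hspa5 averaged 4.87 ± 0.04 (SD, n = 4) in 2-month wild-type cerebellum, 5.13 ± 0.11 in 29-month wild type on the normal diet and 4.71 ± 0.19 on the deficient diet, against 4.73 ± 0.07 in supplemented and 5.46 ± 0.22 in deficient Ttpa-/- cerebellum. The supplemented Ttpa-/- group thus sat beside the deficient wild-type group at the low end and the deficient Ttpa-/- group at the high end, although the genotypes lay on different slides.

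**Figure D3:**
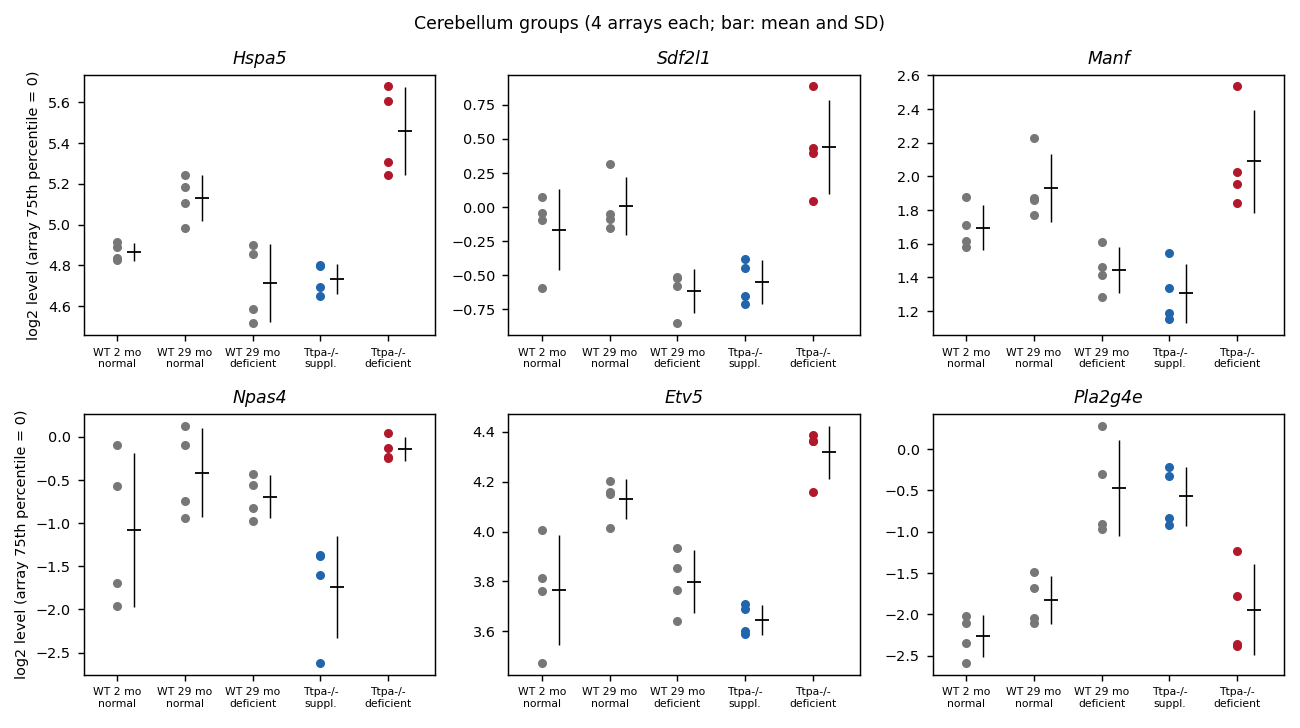
Log2 levels (75th percentile of each array = 0) of 6 genes on the cerebellum arrays of 5 groups, 4 arrays each, with mean and SD beside the points. For Hspa5, Sdf2l1, Manf and Etv5 the deficient Ttpa-/- group has the highest mean and the supplemented Ttpa-/- or deficient wild-type group the lowest, and Pla2g4e shows the deficient wild-type and supplemented Ttpa-/- groups high (means −0.47 and −0.57) and the other 3 groups low.

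The largest rise among well-measured genes was that of Npas4, a transcription factor induced by calcium entry during neuronal firing. Npas4 stood at 0.05, −0.23, −0.25 and −0.13 on the deficient arrays and at −1.6, −2.62, −1.38 and −1.37 on the supplemented arrays, where replicate 2 was the lowest. The log2 change was 1.6 (SE 0.32, adjusted p = 0.00856), and without supplemented replicate 2 it was 1.31 and no longer passed (adjusted p = 0.0711). Fosl2, a Fos family member, stood at −0.10, 0.78, 0.54 and 0.75 against −0.90, −0.87, −0.72 and −0.23 (1.17, SE 0.22, adjusted p = 0.00579). Both were lost without replicate 2 of both diets (adjusted p = 0.0801 and 0.0773).

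These were the 2 called members among 23 tested of 25 neuronal immediate early genes, where 0.134% of all probes tested were called higher. Of the others, Nr4a2 differed by 0.90 (adjusted p = 0.17), Fos by 0.76 (adjusted p = 0.636) and Bdnf by 0.45 (adjusted p = 0.0882), while the classic members Egr1, Arc, Junb and Jun had −0.10, −0.05, −0.32 and −0.42, none past the test. The list had 15 of 23 members above 0 and 10 with an unadjusted p under 0.05, against 47.9% and 11.6% of all probes tested. Its median was 0.22 (0.16 without replicate 2 of both diets). In Ttpa-/- cortex 2 of 24 were called higher, against 1.99% of all probes tested there, and the median was 0.31.

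Outside that list, Vgf, Nrn1 and Etv5, which are known to follow neurotrophin or activity signals, were called higher, and Nrn1 was picked out after its values were seen. Vgf, the precursor of secreted neuropeptides, changed by 0.85 (adjusted p = 0.0143) and was lost in 4 of 8 leave-one-out fits (adjusted p up to 0.092). Nrn1, which encodes the neurite-promoting protein neuritin, changed by 0.70 (SE 0.11, adjusted p = 0.000375). Etv5, an ETS factor downstream of growth factor signalling, stood at 4.36, 4.39, 4.16 and 4.37 against 3.71, 3.60, 3.59 and 3.69 (0.67, SE 0.10, adjusted p = 0.000178), with little spread within either diet, and kept its call with each array left out. Etv5 differed by −0.33 in wild-type cerebellum, and its difference between genotypes was 1.0 (adjusted p = 0.000135).

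Sfpq, a splicing factor of nuclear paraspeckles, had the smallest adjusted p among the named rises, with both of its probes called. At the brighter probe (chr4:126707977-126708036, mm9) it stood at 3.38, 3.51, 3.42 and 3.59 on the deficient arrays and at 2.84, 2.20, 2.34 and 2.56 on the supplemented arrays. The 2 sets did not overlap, and the change was 0.99 (SE 0.13, adjusted p = 1.91e-05), 0.75 at the other probe. Its paraspeckle partner Rbm14 changed by 0.60 at 1 probe (adjusted p = 0.00379) and by 0.51 at a second (adjusted p = 0.244). Also chosen after their values were seen, Dynll1, a dynein light chain, changed by 0.65 and Spast, a microtubule-severing enzyme, by 0.64 (adjusted p = 0.00667 and 0.00124).

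Further named rises were weaker. Tmem200a (0.97), Hras1 (0.92, 1 of 2 probes tested), Eomes, a marker of unipolar brush cells in the cerebellum (0.83 at the called probe, and 0.89 with an adjusted p of 0.436 at the brighter one), and Mall (0.78) were called with all 8 arrays above background, and each was lost in at least 4 of 8 leave-one-out fits (adjusted p up to 0.173). Fam71d rose by 1.81 (SE 0.43, adjusted p = 0.035) from a supplemented level that was well above background on 1 of 4 arrays, and kept its call in 2 of 8. It was tested through the deficient group, so the size of its rise is uncertain.

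The deepest falls came from neighbouring genes. Between chr4:41716345 and chr4:43579898 (mm9, 1864 kb, bounds set after the calls were seen, from the first to the last called probe), 52 probes were tested and 16 were called lower (30.8%), with 0 higher, whereas 18 of the 1982 probes tested on all of chromosome 4 were called lower. These 16 probes make up 16 of the 64 falls and carry 10 gene names. They include the chemokine genes Ccl27a and Ccl19, the tropomyosin gene Tpm2, Creb3 and predicted genes with near-identical copies in the same stretch, so probes named Gm13298, Gm1987, Gm13304 or Gm13308 may read several copies.

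The probe of Gm1987 stood at −4.08, −3.99 and −4.45 on deficient replicates 1 to 3 and at 0.14 on deficient replicate 4. On the supplemented arrays it stood at 3.03, 3.76, 3.33 and 2.97. At the probe of Gm13298, now named Fam205a2 (chr4:41841838-41841897), the deficient arrays stood at −6.79, −7.04, −6.82 and −0.49 and the supplemented arrays at 1.30, 1.03, 1.47 and 1.34, with the deficient group well above background on 1 of 4 arrays. Deficient replicate 4 thus lay between the other deficient arrays and the supplemented group at both. Gm1987 changed by −6.37 (SE 0.70, adjusted p = 1.75e-06). The fitted change of Gm13298 was −6.57 (SE 1.0, adjusted p = 0.000375). That probe was tested through the supplemented group and rests on deficient values near background, so the size of its fall is uncertain. At 14 of the 16 probes deficient replicate 4 was above the other 3. Wild-type cerebellum was like the supplemented group at Gm13298, with 0.56 to 1.67 over 12 arrays.

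Genes of known function in the stretch changed less. Ccl27a, an epithelial chemokine, stood at 1.76, 1.78, 1.98 and 3.07 against 3.29, 3.59, 3.67 and 3.57, where replicate 4 was again the highest deficient array. It fell by 1.38 (SE 0.22, adjusted p = 0.000661) and all 3 of its tested probes were called. Creb3 stood at 1.16, 1.59, 1.57 and 2.11 against 2.54, 2.75, 2.59 and 2.68 and fell by 1.03 (SE 0.13, adjusted p = 1.62e-05). Tpm2 fell by 0.71 and 0.82 at its 2 probes, with a narrow range of −1.64 to −1.54 over the deficient arrays at the first. Ccl19, a chemokine of lymphoid tissue, fell by 1.21 at 1 of 3 tested probes (adjusted p = 0.0437) and kept its call in 1 of 8 leave-one-out fits. Ccl27a, Creb3 and Tpm2 kept theirs in all 8.

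In Ttpa-/- cortex 13 of the 16 probes were called lower on the deficient diet, against 1.31% of all probes tested there. Ccl27a had −1.67 and Creb3 −1.07. At Gm13298 the deficient cortex arrays stood at −6.69, −0.62, −4.54 and 0.12, so they too were split, and the supplemented ones at 1.22 to 1.66. In wild-type cerebellum, 0 of the 16 were called lower on the deficient diet, against 0.816% of all probes tested there. Changes of the 16 probes ran from −0.31 to 0.61. The labels do not say whether the cortex and cerebellum arrays of a replicate number came from the same animal. Car8, a Purkinje cell protein whose gene lies on the same chromosome (chr4:8070545-8070604), singled out the same array: it stood at 1.56, 1.44, 1.77 and 3.65 on the deficient arrays and at 1.67 to 1.88 on the supplemented arrays, against 4.11 to 5.11 on the 12 wild-type arrays. Car8 itself did not pass the test between the diets (0.31, SE 0.48, adjusted p = 0.922). Ttpa lies on chromosome 4 as well, at chr4:19957856-19957915 for its first probe.

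**Figure D4:**
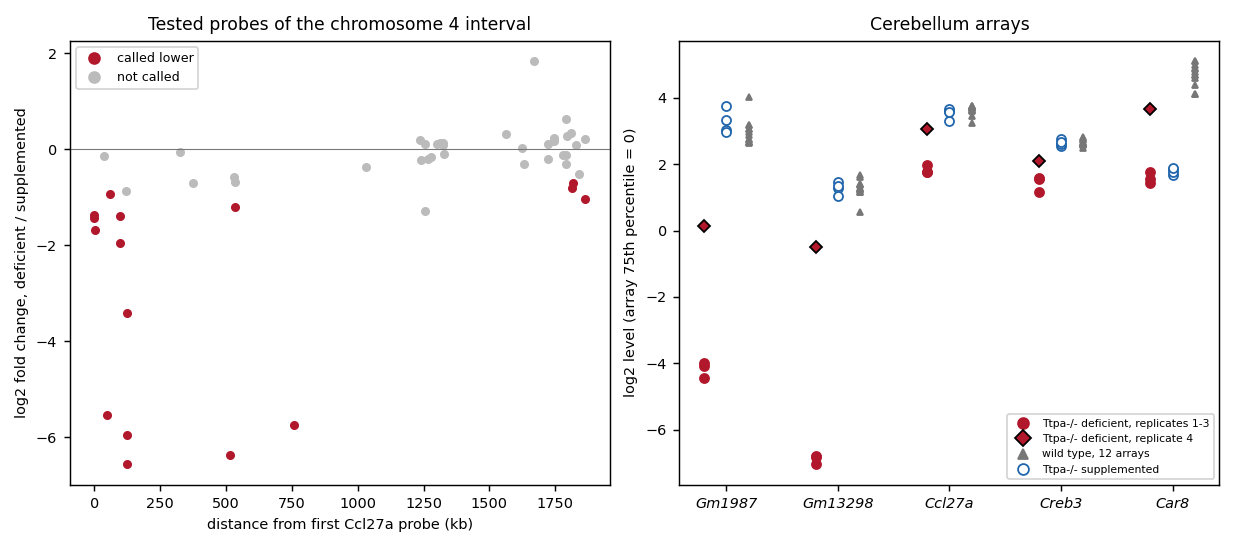
Left, the log2 fold change of each tested probe of the chromosome 4 stretch against its distance in kb from the first Ccl27a probe, with the 16 probes called lower in red. Right, log2 levels (75th percentile of each array = 0) of 5 genes on the cerebellum arrays, where deficient replicate 4 (diamond) lies above deficient replicates 1 to 3 for all 5 genes and the 12 wild-type arrays lie near the supplemented group for all but Car8.

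Outside the stretch 48 probes were called lower. The largest fall of a well-measured gene was that of Pla2g4e, a calcium-dependent cytosolic phospholipase that makes the precursors of N-acylethanolamines. Pla2g4e (chr2:119992643-119992702, mm9) stood at −2.36, −1.24, −1.78 and −2.39 on the deficient arrays and at −0.83, −0.32, −0.21 and −0.92 on the supplemented arrays. The sets did not overlap, the change was −1.37 (SE 0.26, adjusted p = 0.00476), and the call held with each array left out and without replicate 2 of both diets (−1.52). In wild-type cerebellum the deficient diet went with a rise of 1.36 (adjusted p = 0.00547), and the difference between genotypes was −2.73 (adjusted p = 0.000107). In Ttpa-/- cortex the change was −0.65 (adjusted p = 0.0868). Pla2g4e was the only called member of 25 tested phospholipase A2 and eicosanoid genes, where 0.343% of all probes tested were called. The list had a median of −0.02, against −0.01 over all probes tested, and Pla2g4a, Pla2g6 and Pla2g3 differed by −0.02, 0.04 and 0.03.

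Among the other named falls, Gpr116 (Adgrf5), an adhesion receptor of endothelial cells, stood at −1.25, −0.45, −1.0 and −0.91 against −0.37, 0.22, 0.05 and −0.16 (−0.84, SE 0.17, adjusted p = 0.0094). It was lost without deficient replicate 1 or supplemented replicate 2 (adjusted p up to 0.0711), and it was also called lower in Ttpa-/- cortex (−1.22, adjusted p = 6.16e-05). Rab37, a small GTPase of secretory vesicles, fell at both called probes (−0.67 and −0.66) and by −0.70 and −0.65 in Ttpa-/- cortex. Ptprt, a receptor tyrosine phosphatase, fell by 0.87 at 1 of 2 tested probes and was lost without deficient replicate 1 or 4 (adjusted p up to 0.0604). Prr15 (−0.90), Olfml2b (−0.85), Tbx2 (−0.82), Prickle3 (−0.76) and Asprv1 (−0.70) were called with dim but detected signals and kept their call in 1 to 4 of 8 leave-one-out fits (adjusted p up to 0.217).

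Some falls are only bounds. Axin2, a target and inhibitor of Wnt signalling, was not well above background on any deficient array and was above it on 4 of 4 supplemented arrays. It was thus at least 1.39-fold lower (adjusted p = 0.0117), and Figf (Vegfd), a vascular growth factor, was at least 1.31-fold lower in the same way (adjusted p = 0.0435). Both were tested through the supplemented group, and their p-values rest on deficient values below background. Both bounds lie under the 1.5-fold that a call needs, so a change of that size is not established. Axin2 was lost without deficient replicate 1 or 4 (adjusted p up to 0.0988) and Figf in 7 of 8 such fits. Expi (Wfdc18) fell by 1.42 with 3 of 4 deficient arrays above background, and by 1.76 in wild-type cerebellum on the deficient diet. A dim probe of Eif2c1 (Ago1) fell by 0.99 with 3 of 4 above background. The calls of Expi and Eif2c1 held in 2 and 3 of 8 leave-one-out fits.

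Of 31 lists of genes read in these arrays, 27 had no called member at the probe that stands for each gene. Over all probes tested, 0.343% were called, 0.767% had an adjusted p under 0.05 and 11.6% had an unadjusted p under 0.05. The 20 tested genes of vitamin E binding, transport and catabolism had a median of −0.05, with Apoe at −0.06, Scarb1, a lipoprotein receptor that takes up vitamin E, at −0.05 and Abca1 at −0.13. Cyp4f13, a fatty acid hydroxylase of the family that degrades vitamin E, was the 1 member with an adjusted p under 0.05 (−0.41, adjusted p = 0.0258). The 46 antioxidant and glutathione enzymes had a median of −0.03 and 1 unadjusted p under 0.05, with Sod1 at 0.04, Gpx4, the enzyme that reduces lipid peroxides, at −0.06 and Hmox1 at −0.04. The 23 genes of lipid peroxidation and ferroptosis had a median of −0.06, and the 43 respiratory chain subunits 0.03.

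At the probe that stands for each gene, 0 of the Purkinje, granule, interneuron and Bergmann glia markers were called, against 0.343% of all probes tested. The dimmer of the 2 probes of Eomes, in the interneuron list, was called higher as given above. The 35 Purkinje cell genes had a median of −0.01 (Pcp2 −0.08, Calb1 −0.00), the 24 granule cell genes 0.01 (Gabra6 0.00, Cbln1 −0.02) and the 22 genes of Bergmann glia and astrocytes −0.04. In these bulk samples, fewer cells of a type and less RNA per cell cannot be told apart. Homeostatic microglia genes had a median of −0.07 over 20, disease-associated microglia genes −0.11 over 26 with 4 above 0, complement genes −0.17 over 16 and myelin genes −0.16 over 26 with 4 unadjusted p under 0.05. Over all probes tested, 47.9% lay above 0 and 11.6% had an unadjusted p under 0.05, so the myelin count is near that share. On the deficient diet 8 of 26 myelin genes were called lower in wild-type cerebellum and 7 of 27 in Ttpa-/- cortex. The shares of all probes called lower in these 2 comparisons were 0.816% and 1.31%. The reactive astrocyte list had 1 called member of 24, which was Hspb1, where 0.343% of all probes tested were called. Gfap, the defining gene of that list, had −0.35, −0.40 and −0.36 at 3 probes, none past the test. Among clock genes Dbp differed by −0.74 and Per2 by 0.60 (adjusted p = 0.196 and 0.414), and 7 of 20 had an unadjusted p under 0.05, against 11.6% of all probes tested.

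Blood genes varied from array to array. Their summed signal ran from 22.2 to 64.8 on the deficient and from 29.3 to 187 on the supplemented arrays, where replicate 2 was the highest. The median of 14 tested members was −0.82 (−0.31 without replicate 2 of both diets), and 0 were called, against 0.343% of all probes tested. The choroid plexus list had 0 of 13 called, and Ttr, its most abundant gene, differed by −1.80 (SE 1.27, adjusted p = 0.673). The part of blood or choroid plexus RNA in the calls was not tested.

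Of the genes the study names, none was called, against 0.343% of all probes tested. Pla2g3 differed by 0.03 (SE 0.40, adjusted p = 0.995), Ide, the insulin-degrading enzyme, by −0.01 (SE 0.21) and App by 0.13 (SE 0.07). Mybpc2 and Fcgbp were well above background on 0 of 4 arrays of each diet, and Tsga10, Gm3448 and Tcp10c had −0.22, −0.47 and −0.18 at their brighter probes, none past the test.

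**Figure D5:**
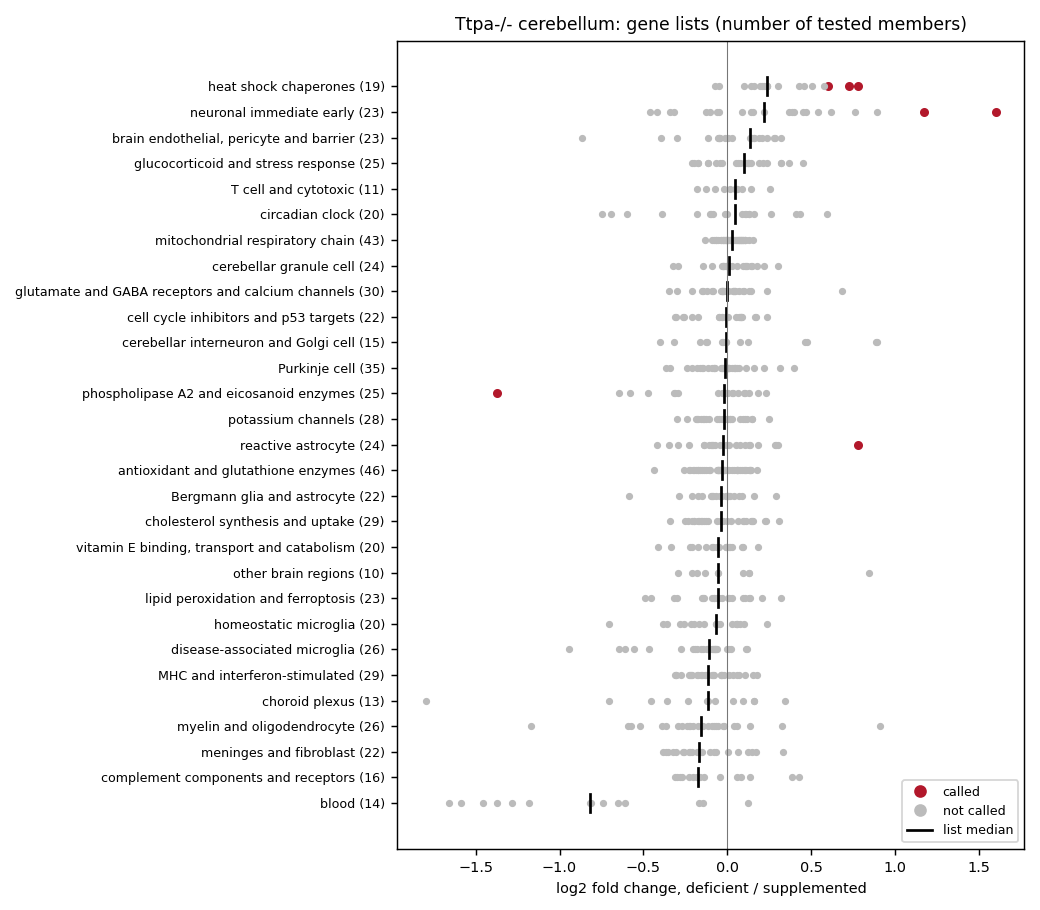
Log2 fold change between the deficient and supplemented diets of every tested member of 29 gene lists, with the number tested in parentheses and a bar at each list's median. Called members (red) appear in 4 lists, and the medians of the heat shock and immediate early lists are the highest at 0.24 and 0.22.

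The same diet contrast in Ttpa-/- cortex, whose 2 groups lay on different slides, gave 579 probes higher (1.99%) and 382 lower (1.31%) of 29077 tested (3.31%). Of the 41 probes called higher in the cerebellum, 38 were tested there, 34 lay above 0 and 7 were called higher, with a median of 0.37, while 46.9% of all probes tested in both lay above 0. Of the 64 called lower, 63 were tested, 55 lay below 0 and 25 were called lower, with a median of −0.51. Over all 27963 probes tested in both regions the log2 changes correlated with r = 0.29, across probes, which are not independent.

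A direct test of the difference between the regions called 14 probes of 31757 (0.0441%), 7 higher (0.022%) and 7 lower (0.022%). Clstn2, a synaptic adhesion protein, differed by 0.50 in the cerebellum and by −0.44 in the cortex (difference 0.94, adjusted p = 0.0113). Chgb, the secretory granule protein chromogranin B, had 0.41 and −0.26 (difference 0.67, adjusted p = 0.0166), and Frmd3 had 0.51 and −0.20 (difference 0.71, adjusted p = 0.043). In the other direction, Nova2, a neuronal splicing regulator, had 0.09 and 0.90, Sbk1 −0.12 and 0.64, and Trp53i11 −0.30 and 0.80 (differences −0.81, −0.76 and −1.10). Without deficient cerebellum replicate 4 these 14 calls fell to 0 in both directions, and without deficient cortex replicate 4 they grew to 175 higher and 521 lower.

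In wild-type cerebellum the deficient against the normal diet gave 142 probes higher (0.458%) and 253 lower (0.816%) of 30990 (1.27%). Of 40 probes that were higher in Ttpa-/- cerebellum and tested there, 2 lay above 0, 8 were called lower and 0 higher, with a median of −0.44 against 47.5% of all probes above 0. Of the 64 probes that were lower, 30 lay below 0, 2 were called lower and 5 higher. Over 29908 probes the changes correlated with r = −0.14. The difference between the 2 cerebellar contrasts was called at 849 of 31725 probes (2.68%), 465 higher (1.47%) and 384 lower (1.21%), among them the chaperones and Pla2g4e given above. Reference diet, slide and genotype differed together between these contrasts and cannot be told apart.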

How the data were processed

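Total RNA was hybridised to 40 one-colour Agilent arrays. The authors deposited the scanner output of each array, whose processed intensity (gProcessedSignal) is background-subtracted and not scaled between arrays, and a table of log2 values of the same arrays. At 55589 matched probes that log2 table, which the authors scaled to the 75th percentile, differed from the values used here by a median of 0.000915. Feature Extraction is version 10.7.3.1 per the file headers and 10.1.1.1 per the submitters' processing notes. Probe positions are on mm9.

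Control spots were left out, the log2 intensity was taken relative to each array's 75th percentile, and 1 linear model with 10 group means was fitted with limma 3.58.1 in R 4.3.3. A probe was tested where either compared group had it well above background on each of its 4 arrays, p-values were adjusted by Benjamini-Hochberg over them, and a call needed an adjusted p under 0.05 and a change over 1.5-fold. All adjusted p-values in the text are of this kind. The design text gives 4 mice per group, and no label ties an array to a mouse. The number of arrays limits the precision.

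The genes named are the 12 largest rises and 12 largest falls among called probes whose diets do not overlap and that are above background on all 8 arrays, up to 4 further ones each way that are partly below background, called list members and up to 4 of the brightest, the genes the study names, and the 6 with the smallest p of each interaction. The brightest probe stands for a list gene. Members, lists and tests were chosen with earlier results of these data known. On simulated data for the cerebellar diet comparison (30643 probes), 69% of 100 probes changed by 0.8 and 92% of 100 changed by 1.6 on the log2 scale were called in the fit of 40 arrays, and 56% and 76% in the fit of 8, each with 5 unchanged probes called. The simulated noise was independent between probes and arrays, with the same spread in every group. Real arrays shared deviations, so these rates need not hold for the data. Promoters are RefSeq's of GRCm38.p6. Of 21916 RefSeq identifiers on the array, 20591 were found in RefSeq's table, and 2224 of these now carry another symbol.

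Alternatives were other scalings, background correction, filters, samples, blocks and tests, and each array left out in turn.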

Additional observations from a re-analysis of the deposited data

Results flagged for a closer look

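In 116 sets of 4 values, 1 array stood far from the other 3 in 10, and chance gives such a gap in about 1 in 20 sets. Deficient replicate 4 was the high array for Ccl27a, at 3.07 against 1.76 to 1.98, and for both probes of Car8, at 3.65 against 1.44 to 1.77 and at 3.29 against 1.27 to 1.53. The same array was low for Sbk1, at 3.44 against 3.81 to 3.87, and for Nova2, at 0.92 against 1.15 to 1.18. Deficient replicate 3 was low for Etv5, at 4.16 against 4.36 to 4.39, and still lay above every supplemented array. Deficient replicate 1 was high for Hspa1a, at −0.45 against −0.92 to −0.86. Deficient replicate 2 was high for the second probe of Ttpa, at −2.67 against −6.58 to −6.31, and for Fcgbp, at −5.55 against −7.04 to −6.94, and low for the dimmer probe of Tsga10, at −6.93 against −6.15 to −6.09. Fcgbp and this Tsga10 probe were not well above background on any of these arrays.

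The diet effect differed between cerebellum and cortex of Ttpa-/- mice at 14 probes by the interaction test. The differences were 0.94 for Clstn2, 0.67 for Chgb, 0.71 for Frmd3, −1.10 for Trp53i11, −0.76 for Sbk1 and −0.81 for Nova2.

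The cerebellar diet effect differed between Ttpa-/- and wild-type mice at 849 probes. The differences were 1.26 for Hsph1, 1.14 for Hspa5, 1.61 for Sdf2l1, 1.28 for Manf, 1.0 for Etv5 and −2.73 for Pla2g4e.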

How the results depend on the processing

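No called result changed direction. Some results that did not pass the test changed sign between settings, such as Pla2g3 (−0.22 to 0.16), Car8 (−0.20 to 0.56 at its brighter probe), Nova2 (−0.01 to 0.16) and Ide (−0.05 to 0.03). The counts of higher and lower probes in Ttpa-/- cerebellum, 41 and 64, came to 43 and 63 with quantile normalization, 44 and 44 with normexp background correction and 41 and 64 on the authors' log2 values. They were 11 and 21 with scaling to the median, 15 and 29 with the 20 cerebellum arrays alone, 63 and 65 with no filter, 160 and 365 at an unadjusted p, 302 and 558 by fold alone, about 1.1e+02 and 293 with the methods' t-test unadjusted, and 0 and 0 with that test after Benjamini-Hochberg. A test against the fold threshold (treat), added after seeing the data, gave 0 and 12, and the 8 arrays alone 0 and 0. Leaving out each array in turn gave 18 (without supplemented replicate 2) to 86 (without deficient replicate 2) higher and 22 (without deficient replicate 1) to 147 (without deficient replicate 2) lower. The median change over all probes moved between −0.013 and 0.008 with the scaling. Of the 36 called genes that were followed through these fits, 10 kept their call with each of the 8 arrays left out. Nrn1, Rbm14, Dynll1, Spast, Rab37, Gm1987 and Gm13298, also named as called, were not among them.

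In Ttpa-/- cortex, 579 and 382 became 738 and 287 with quantile normalization and 290 and 170 with normexp, and leaving out 1 array gave 243 to 945 higher and 216 to 536 lower. In wild-type cerebellum, 142 and 253 became 136 and 558 with quantile normalization and 156 and 117 with normexp, where the higher probes outnumbered the lower ones, and leaving out 1 array gave 4 to 395 and 8 to 435. The difference between regions, 7 and 7, became 17 and 74 with quantile normalization and 32 and 39 with normexp, and leaving out 1 array gave 0 to 175 and 0 to 521. The difference between genotypes, 465 and 384, became 599 and 346 with quantile normalization and 382 and 355 with normexp, and leaving out 1 array gave 230 to 657 and 151 to 530.

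The replicate number is also the slide column. Arrays of the same number deviated together for replicates 1, 2 and 4 and not for replicate 3 (r of 0.38, 0.67, 0.42 and −0.04), and the arrays of replicates 1, 2 and 4 correlated best with their own number. Since this did not hold for every number and no label ties them, the arrays were not treated as pairs. With the replicate number as a block, the cerebellum gave 44 and 69 over all arrays and 0 and 0 on the 8 arrays alone, the cortex 604 and 403, the wild type 152 and 260, the regions 29 and 52 and the genotypes 499 and 421. The causes of these differences were not tested. Dim probes limit what can be said: a gene below background on every array of 1 group has only a bound.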
